A study of Mus musculus with 12 samples.

Results

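The 10 genes described here mark the ciliated cells of the airway lining and were followed through mouse lung RNA libraries: Foxj1, Dnah5, Dnah9, Dnah11, Dnai1, Dynlrb2, Tppp3, Tekt1, Rsph1 and Ccdc39. They were chosen by gene symbol, and all 10 were among the 56980 genes of the expression table and among the 17827 that passed the filter on low counts. RNA was taken from the lungs of C57BL/6 mice, all male and labelled as 6 to 8 weeks old, and the libraries form 3 groups of 4. Euthanasia was on day 28 for every library. The Control group is labelled only as control, the Model group received a single dose of bleomycin (5 mg/kg) into the trachea, and the HBG group received the same bleomycin dose and 7 g/kg of oral Huashibaidu granules (HBG, herbal granules). Per the sample text, the Control and Model groups were given the same volume of distilled water. Bleomycin injures the lung epithelium and is a widely used trigger of lung fibrosis in mice. The series text describes granules from 1 week before bleomycin until day 28, while the sample text describes a start on day 7 and 14 days of treatment, so the timing of the HBG group is uncertain. The sample text also mentions several granule doses without tying a library to one, and the dose given here is that of the series text. Whether each library is its own animal is nowhere stated, and the p-values then reflect only how far these libraries differ, part of which may be technical.

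Ciliated cells carry bundles of motile cilia that beat to move mucus out of the airways. Each motile cilium is built around an axoneme, a ring of doublet microtubules around a central pair, and dynein arms on the doublets slide one against the next. Foxj1 is the transcription factor that switches on the motile cilium genes, acting together with RFX factors, which bind X-box motifs. Among the members, Dnah5, Dnah9 and Dnah11 are heavy chains of the outer dynein arms and Dnai1 is an intermediate chain of the same arms. Dynlrb2 is a roadblock-type dynein light chain, Tppp3 binds and bundles microtubules, Tekt1 is a tektin, a filament protein of the doublets, Rsph1 belongs to the radial spoke head, and Ccdc39 forms with Ccdc40 the ruler that spaces the arms along the doublet.

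The start-site windows of the members are shown first because they hold the letters of the RFX half-sites that ciliary genes are known to share. RefSeq promoter windows (GRCm38.p6, 250 bases before and 50 after a start site) matched 6 of the 10 members by symbol, with 7 windows in all. Foxj1, Dnai1, Tppp3 and Rsph1 had none. Windows were searched on both strands for GTTGCC, for GTTGCT, for a paired form (GTTGC, then NNN, G, N and AAC), which can overlap the half-sites, and for the forkhead letters GTAAACA. In the lines here, capitals mark the letters found and each run is given 5′ to 3′ on the strand of the gene. The Dnah9 run is chr11:66168613-66168642 (minus strand) and begins its motif 82 bases before the start site. The Dynlrb2 run is chr8:116504955-116504984 (plus strand, 51 bases before). The Tekt1 runs are chr11:72361880-72361909 and chr11:72361900-72361929 (minus strand, 15 and 35 bases before). The Dnah5 run is chr15:28203646-28203675 (plus strand, 108 bases before a start site that lies inside the gene's annotated span). The Ccdc39 run is chr3:33844276-33844305 (minus strand, at position 18 after the start site).
Dnah9: cttccaccaGTTTCCCAGCAACaacgacgc
Dynlrb2: tcctgcctgGTTGCCTAGCAACgggggaag
Tekt1, nearer run: tgcgtccgtccgGTTGCCatagagaccgca
Tekt1, farther run: tcttctaactagGGCAACgttgcgtccgtc
Dnah5: ttgctttctcttGTTGCTaaacatgattaa
Ccdc39: gggcgcctggctGTTGCTagggccgcggaa

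A half-site of either kind was found in 5 of the 7 member windows, in 70 of 105 windows of a wider list of motile cilia genes (66.7%) and in 25.1% of 32851 windows of all genes. The paired form was found in 2 member windows, those of Dnah9 and Dynlrb2, in 15.2% of the wider list's windows and in 0.685% of all windows. The forkhead letters were in 0 of the 7 member windows, in 7.62% of the wider list's and in 3.65% of all. The windows of Dnah11 and of a second Tekt1 start site held none of the motifs. These matches describe letters in a window, with no measurement of binding.

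Total counts ranged from 18864850 to 27150874 in Control, from 19230871 to 22622450 in Model and from 17979908 to 20752060 in HBG libraries. The rarest member in any library, Dnai1, still had 191 counts, so no member was near the floor of 3 counts. Levels are given as CPM, read counts scaled to library size with TMM factors. One library stood apart for these genes: the library labelled HBG 3 was the lowest of all 12 for 10 of 10 members. HBG 1 was the highest for 9 of 10, and Model 2 was the second lowest for 9 of 10. Several summary values that HBG 3 moves are therefore given with and without it. All members were detected in every library. Of 8 genes on a testis list, 7 (Prm1, Prm2, Tnp1, Tnp2, Odf1, Smcp and Akap4) had at most 2 counts in any library. The other, Spata18, reached 1749 counts and shared the extremes of the members, with HBG 3 lowest (23.3 CPM) and HBG 1 highest (81.6 CPM). Because whole lung RNA was measured, fewer ciliated cells and less RNA per ciliated cell cannot be told apart.

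Foxj1 (ENSMUSG00000034227), the master regulator, was measured at 172, 269, 243 and 178 CPM in Control 1 to 4, at 176, 110, 176 and 224 CPM in Model 1 to 4, and at 312, 152, 64.4 and 221 CPM in HBG 1 to 4. The HBG libraries held both the highest and the lowest value of the series, and the 3 groups overlapped. Mean levels were 215 ± 47.9 CPM for Control, 172 ± 46.7 CPM for Model and 187 ± 105 CPM for HBG (SD, n = 4 each). Without HBG 3, the HBG mean was 228 ± 80.2 CPM (SD, n = 3). The highest library was 4.84 times the lowest, the widest range of any member, and 2.83 times the lowest when HBG 3 was left out.

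**Figure D1:**
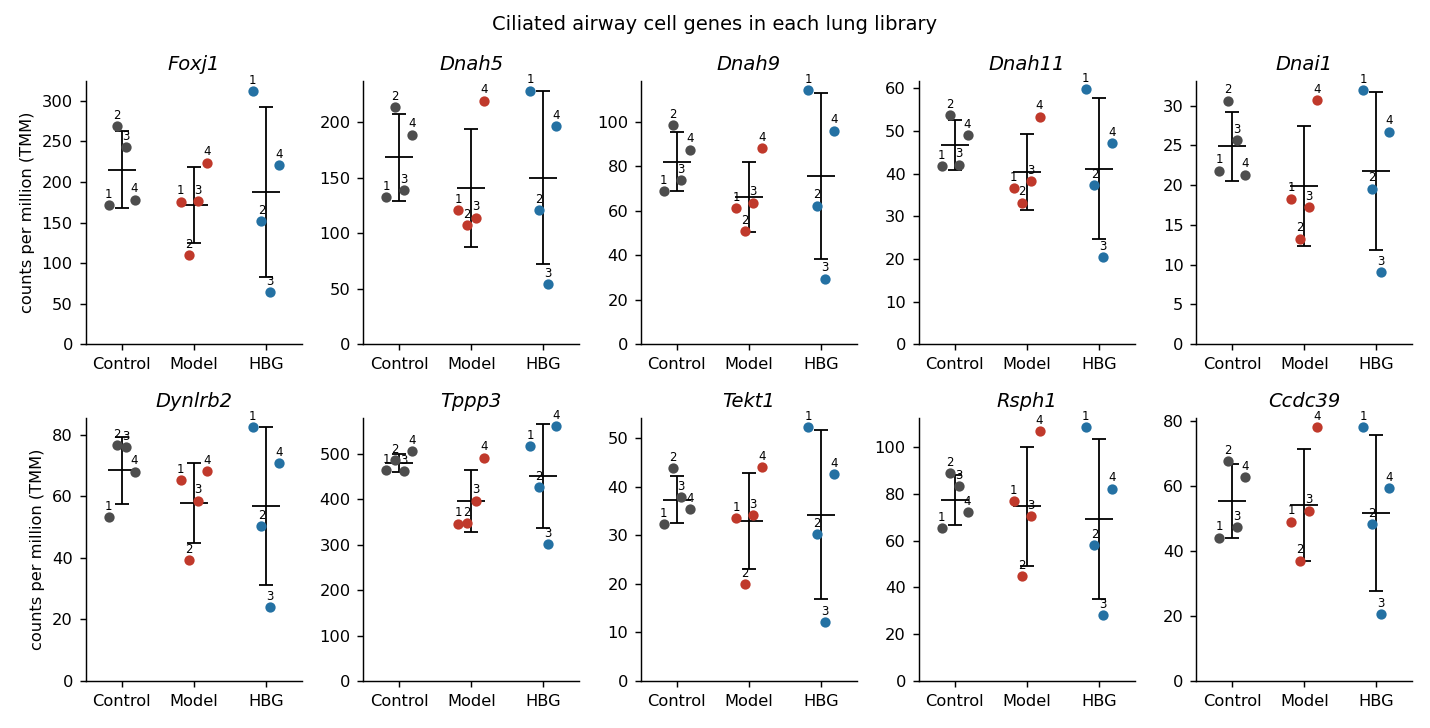
Levels of the 10 genes in each library, with CPM (TMM scaled) on the vertical axis from 0 and the 3 groups on the horizontal axis. Each point is a library and carries its replicate number, and bars show the group mean and SD (n = 4). HBG 3 is the lowest point in all 10 panels and HBG 1 the highest in 9 of them.

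The outer arm heavy chains shared the extremes of Foxj1: HBG 3 was lowest, Model 2 second lowest and HBG 1 highest for all 3, while the libraries between them took different orders. Dnah5 (ENSMUSG00000022262), a heavy chain present along the whole cilium, was at 132, 213, 139 and 189 CPM in Control, 121, 107, 114 and 219 CPM in the Model libraries and 228, 121, 54.2 and 196 CPM in HBG. Model 4 lay well above the other 3 Model libraries, which were all below the Control range, and was the second highest library of the series. Dnah9 (ENSMUSG00000056752), the heavy chain of the distal cilium, was at 68.8, 98.5, 73.7 and 87.5 CPM in Control, 61.3, 51.0, 63.7 and 88.2 CPM in the Model libraries and 114, 62.3, 29.5 and 96.0 CPM in HBG. For this gene 3 Model libraries were below every Control library, and Model 4 was above 3 of the 4. Dnah11 (ENSMUSG00000018581), the heavy chain of the proximal cilium, was at 41.7, 53.7, 42.1 and 49.1 CPM in Control, 36.5, 33.2, 38.3 and 53.3 CPM in the Model libraries and 59.7, 37.3, 20.4 and 47.1 CPM in HBG. Here too 3 Model libraries were below all Control libraries while Model 4 was not, and HBG 3 was by itself at the bottom.

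Dnai1 (ENSMUSG00000061322), the intermediate chain that helps to anchor the outer arm, was at 21.8, 30.6, 25.7 and 21.3 CPM in Control, 18.3, 13.3, 17.3 and 30.7 CPM in the Model libraries and 32.0, 19.6, 9.03 and 26.7 CPM in HBG. Model 4 was level with the highest Control library, and the other 3 Model libraries were lower than every Control library. Dynlrb2 (ENSMUSG00000034467), the light chain, was at 53.4, 76.6, 76.2 and 68.1 CPM in Control, 65.2, 39.4, 58.6 and 68.2 CPM in the Model libraries and 82.7, 50.4, 24.0 and 70.9 CPM in HBG. Only Model 2 of the Model libraries was below the Control range for this gene.

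Tppp3 (ENSMUSG00000014846) was the most abundant member and the least variable. It was at 466, 487, 462 and 506 CPM in Control, 347, 348, 398 and 492 CPM in the Model libraries and 517, 427, 301 and 562 CPM in HBG. The Control libraries lay within 1.10 times of each other, and 3 Model libraries and 2 HBG libraries were below all of them. Its highest library was 1.87 times its lowest, against 2.92 to 4.84 times for the other 9 members. Without HBG 3 these ranges were 1.62 times for Tppp3 and 1.80 to 2.83 times for the others. Tppp3 was also the exception in the order of libraries: its highest value was in HBG 4 and its second lowest in Model 1.

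Tekt1 (ENSMUSG00000020799), the tektin, was at 32.3, 43.8, 37.8 and 35.5 CPM in Control, 33.6, 19.99, 34.2 and 44.1 CPM in the Model libraries and 52.2, 30.3, 12.05 and 42.6 CPM in HBG. Of the 4 Model libraries, 3 were within or above the Control range. Rsph1 (ENSMUSG00000024033), of the radial spoke head, was at 65.3, 89.0, 83.4 and 72.3 CPM in Control, 76.9, 44.7, 70.4 and 107 CPM in the Model libraries and 109, 58.0, 28.2 and 82.3 CPM in HBG. Ccdc39 (ENSMUSG00000027676), the ruler protein, was at 44.0, 67.6, 47.4 and 62.5 CPM in Control, 49.0, 37.0, 52.4 and 77.9 CPM in the Model libraries and 78.0, 48.2, 20.6 and 59.2 CPM in HBG. For both genes Model 2 was the only Model library below the Control range and Model 4 was above it.

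To compare the members with each other, levels were divided by the gene lengths in the table, which for all 10 equal the length of a GENCODE M21 transcript. On this scale of CPM per kilobase, Tppp3 was highest in Control (426 ± 18.3, SD, n = 4), followed by Dynlrb2 (133 ± 21.1), Foxj1 (82.1 ± 18.2), Rsph1 (65.1 ± 8.99) and Tekt1 (25.8 ± 3.36). The lower part of the order was Ccdc39 (15.4 ± 3.17), Dnah5 (10.8 ± 2.51), Dnai1 (9.91 ± 1.72), Dnah9 (5.95 ± 0.977) and Dnah11 (3.31 ± 0.412). The Control ranges of Foxj1 and Rsph1 overlapped, as did those of Ccdc39 and Dnah5 and of Dnah5 and Dnai1. Dnah5 was above Dnai1 in only 8 of 12 libraries and Foxj1 above Rsph1 in 11, while each of the other neighbours kept its order in 12 of 12. Among the outer arm heavy chains, the order Dnah5, Dnah9, Dnah11 held in all 12 libraries, and the Control mean of Tppp3 was 129 times that of Dnah11.

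**Figure D2:**
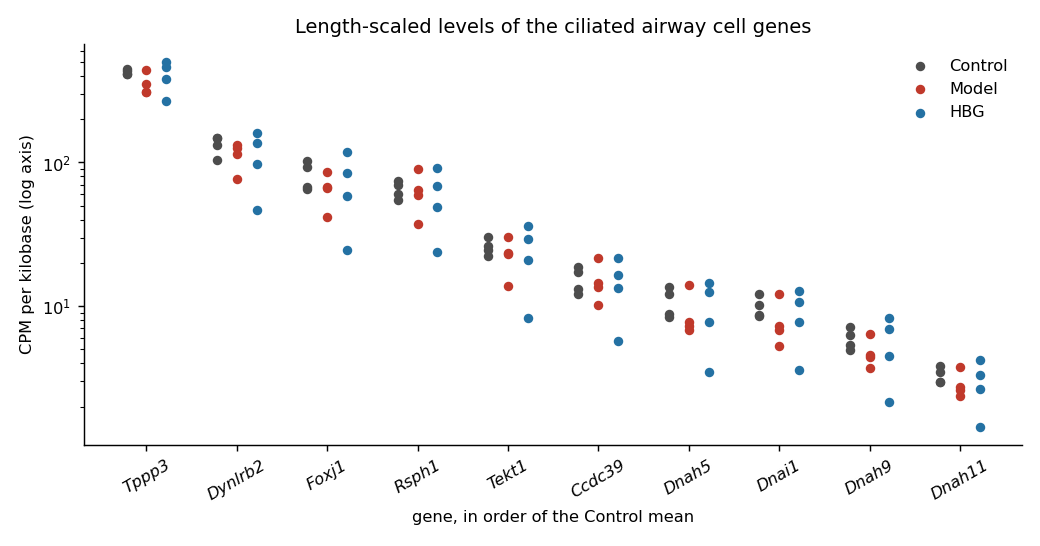
Length-scaled levels in CPM per kilobase on a log axis, for the 10 genes in order of their Control mean. Each point is a library, coloured by group. Tppp3 is highest at 426 and Dnah11 lowest at 3.31 in the Control mean, and the order of most neighbours is the same in every library.

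The members moved together from library to library. Across the 12 libraries, Pearson correlations of log2 CPM over the 45 pairs of members ranged from 0.789 (Tppp3 with Rsph1) to 0.988 (Dnah9 with Dnah11), with a median of 0.945. Without HBG 3 they ranged from 0.631 to 0.971, with a median of 0.880. After the group means were removed, the range was 0.846 to 0.992 and the median 0.948. These values describe points that share a library and its depth, and are not a test.

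A mean score over the members, as a level relative to the Control mean, was 0.852, 1.19, 0.985 and 1.004 in Control 1 to 4, 0.828, 0.613, 0.828 and 1.18 in Model 1 to 4, and 1.33, 0.789, 0.379 and 1.10 in HBG 1 to 4. The HBG group thus spanned more of the scale than the other groups, from the lowest library to the highest. Model 1, Model 3 and HBG 2 lay a little under the Control range, and Model 4, HBG 1 and HBG 4 lay within or above it. The ratio of a member to Foxj1 varied less than the levels did for all members but Tppp3. The highest ratio was 1.28 times the lowest for Tekt1, 1.43 times for Dnai1 and 1.44 times for both Rsph1 and Dynlrb2. It was 1.62 times for Dnah9 and 1.80 to 1.85 times for Ccdc39, Dnah11 and Dnah5. For Tppp3 it was 2.82 times: the CPM ratio of Tppp3 to Foxj1 was 1.66 in HBG 1 and 4.67 in HBG 3. Without HBG 3 the Tppp3 ratio still varied by 1.90 times, from HBG 1 to Model 2, and the other members' ratios by 1.28 to 1.85 times.

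**Figure D3:**
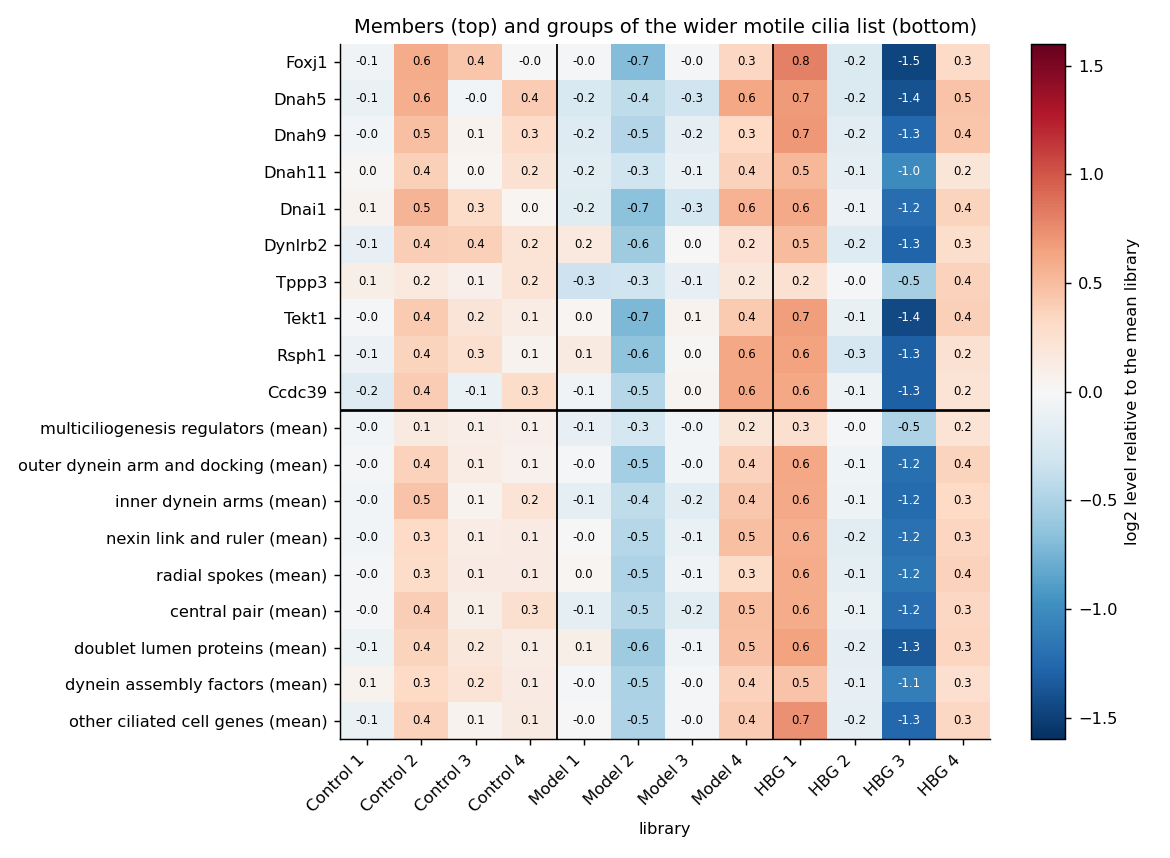
Heat map of log2 level relative to the mean library, with the 10 genes in the upper rows, the mean of each group of the wider motile cilia list in the lower rows and the 12 libraries in columns. Red is higher, blue lower, and each cell prints its value. The column of HBG 3 is blue and that of HBG 1 red in every row, and the row of Tppp3 and that of the regulators are the palest.

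Comparing Model with Control asks whether bleomycin lung holds less or more ciliated cell RNA. All 10 members had a lower mean log2 level in Model, with folds from 0.797 (Foxj1) to 0.976 (Ccdc39), and none passed the test at an adjusted p of 0.05 in edgeR's quasi-likelihood fit over all genes, with 0 at an unadjusted p under 0.05. In that fit 0.348% of the genes tested passed. DESeq2 and limma-voom likewise called 0 of the 10. The median log2 fold change was -0.25 (0.839-fold), against 0.0089 over all genes tested, of which 8640 were lower and 9187 higher. The Model and Control ranges overlapped for all 10 members; 8.71% of the genes tested did not overlap.

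For Foxj1 the Model minus Control difference was -0.33 ± 0.38 on the log2 scale (SE), with a 95% interval from -1.16 to 0.50 and an adjusted p of 0.780 in edgeR. Tppp3 had the smallest p of the members, at -0.28 ± 0.18 (edgeR adjusted p = 0.578, interval from -0.67 to 0.11), as it had the narrowest interval. Rsph1 (-0.053, edgeR adjusted p = 0.970) and Ccdc39 (-0.035, edgeR adjusted p = 0.979) lay closest to 0. The lowest bound of any member's interval was 0.448-fold (Foxj1) and the highest 1.63-fold (Rsph1 and Ccdc39), while that of Tppp3 ran from 0.628-fold to 1.08-fold. The median was -0.14 without Model 2 and -0.39 without Model 4.

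HBG against Model asks whether the granules moved these genes in lungs given bleomycin. Of the members, 7 had a higher and 3 a lower mean log2 level in HBG, with folds from 0.927 (Rsph1) to 1.14 (Dnah9 and Tppp3) and a median log2 fold change of 0.076, against 0.00061 over all genes. In edgeR 0 of 10 passed and 0 had an unadjusted p under 0.05, and 0% of the genes tested passed (433 genes had an unadjusted p under 0.05, and DESeq2 called 4, none of them a member). The bounds of the members' intervals lay between 0.548-fold (Rsph1) and 1.94-fold (Foxj1). The groups overlapped for all 10, against 1.13% of genes whose groups did not. The direction of this median rested on single libraries: it was 0.34 without HBG 3, -0.21 without HBG 1, -0.053 without HBG 4 and -0.045 without Model 2.

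HBG against Control shares its libraries with the other comparisons and gives the same picture. All 10 members were lower in HBG, from -0.27 (Dynlrb2) to -0.089 (Tppp3) on the log2 scale, with a median of -0.16 (0.892-fold) against 0.0061 over all genes. None passed in edgeR (adjusted p from 0.837 to 0.957, 0 at an unadjusted p under 0.05), where 0.151% of the genes tested did. The groups overlapped for all 10, and 6.33% of the genes tested did not overlap. The median was 0.091 without HBG 3 and -0.43 without HBG 1, so its direction rested on single libraries here too.

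**Figure D4:**
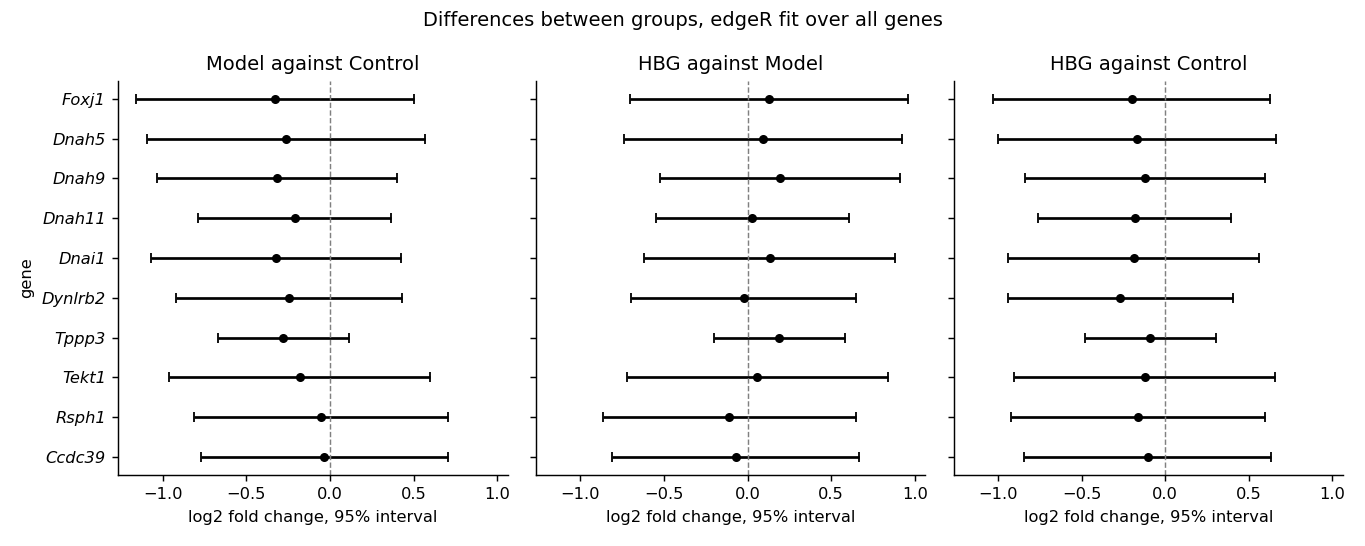
Log2 fold changes of the 10 genes for the 3 comparisons, as points with 95% intervals from the edgeR fit over all genes. The dashed line marks 0. Every interval includes 0, and the Tppp3 interval is the narrowest in each panel.

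The wider list held 109 further genes of motile cilia, named from knowledge of their roles, of which 108 were tested. Dnaaf6, a dynein assembly factor, was listed at 0 counts in all libraries. In Model against Control 13 of the 108 were higher and 95 lower, 0 passed and 3 had an unadjusted p under 0.05, with a median log2 fold change of -0.16. That is 2.78% of the list at an unadjusted p under 0.05, against 11.7% of all genes tested. In HBG against Model 77 were higher and 31 lower, 0 passed and 0 had an unadjusted p under 0.05, against 2.43% of all genes. In HBG against Control 30 were higher and 78 lower, 0 passed and 1 had an unadjusted p under 0.05 (0.926%, against 8.25% of all genes). The list counts of both HBG comparisons include HBG 3.

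Within this list every structural group repeated the library pattern of the members. Regulators, outer arm and docking, inner arm, nexin link, radial spoke, central pair, doublet lumen, assembly factor and other genes all had HBG 3 lowest and HBG 1 highest, and their mean scores correlated with the member score at 0.976 to 0.994 over 12 libraries and at 0.959 to 0.986 without HBG 3. The regulators spanned less, from -0.49 to 0.26 on the log2 scale, than the doublet lumen proteins, from -1.35 to 0.65. None of 3 further genes of known structural roles passed in any comparison. Dnai2, the partner of Dnai1, averaged 45.9, 43.9 and 46.4 CPM in Control, Model and HBG. Ccdc40, the partner of Ccdc39, averaged 72.6, 71.0 and 72.9 CPM, and Hydin, of the central pair, averaged 78.4, 65.3 and 68.5 CPM. Without HBG 3 the HBG means of Dnai2, Ccdc40 and Hydin were higher, at 56.8, 87.8 and 80.9 CPM.

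Dnaaf2 was the gene of the wider list with the smallest p. It is a cytoplasmic factor that assembles dynein arms before they enter the cilium. It was at 15.3, 13.6, 16.3 and 12.8 CPM in Control, 8.06, 8.08, 9.37 and 10.3 CPM in the Model libraries and 10.8, 8.65, 5.62 and 11.03 CPM in HBG. Every Model and HBG library was below every Control library. Dnaaf2 was named for its small p, so this gap is no separate support. In HBG against Control it was the 1 gene of the 108 without overlap (0.926%, against 6.33% of all genes tested). On the log2 scale the difference was -0.70 ± 0.20 in Model against Control (SE; edgeR adjusted p = 0.201) and -0.68 ± 0.20 in HBG against Control (edgeR adjusted p = 0.342), so neither passed, although DESeq2 (adjusted p = 0.0289) and limma-voom (adjusted p = 0.0117) called the first. Its level correlated with the member score at 0.714 (0.457 without HBG 3), and the list median was 0.961 (0.912 without HBG 3).

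Spef1, a central pair protein, was the next. It averaged 53.0 ± 5.87 CPM for Control, 37.6 ± 6.95 CPM for Model and 41.3 ± 11.1 CPM for HBG (SD, n = 4). Without HBG 3 its HBG mean was 46.8 CPM. Its Model against Control difference was -0.50 ± 0.20 (edgeR adjusted p = 0.372), and limma-voom called it (adjusted p = 0.0403). Of the 108 genes, 4 had Model and Control ranges that did not overlap: Dnaaf2, Spef1, Gmnc and Ccno, the latter pair regulators of multiciliated cell formation. That is 3.7% of the list, below the 8.71% of all genes tested. In HBG against Model the smallest p belonged to E2f4, at 45.7 against 51.3 CPM (-0.17 ± 0.11), and Ccno, at 5.53 against 4.53 CPM (0.29 ± 0.20), with overlapping ranges.

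Outside the members, the genes of most alike pattern were Cfap206 (Pearson correlation of log2 CPM with the member score over 12 libraries of 0.997), Cep126 (0.997), Rsph4a (0.997), Ak7 (0.993), Lrguk (0.992) and Cfap58 (0.989). Without HBG 3 the correlations of these 6 genes were 0.9752 to 0.995. Cfap206, Rsph4a and Ak7 were also on the wider list, and Cep126, Lrguk and Cfap58 were not. Of 15919 tested genes with a mean of at least 1 CPM, 538 reached 0.9, among them 85 of the 106 genes of the wider list in that set. Without HBG 3, 281 genes reached 0.9, among them 65 of the list. The median over 12 libraries was 0.961 for the list and 0.000533 for all genes. The lowest values on the list were those of E2f4 (-0.179), Foxn4 (-0.120) and Cdc20b (0.114). E2f4 averaged 48.5 CPM, but Foxn4 averaged only 1.25 CPM (12 to 36 counts per library) and Cdc20b 0.535 CPM (6 to 19 counts). Cdc20b thus lay below the cut of 1 CPM used for the medians.

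The paralogues of 2 members correlated less with the member score than any member pair did. Dynlrb1, the paralogue of Dynlrb2 used by cytoplasmic dynein in all cells, correlated with it at 0.388 (0.056 without HBG 3) and averaged 118 ± 14.4, 125 ± 19.97 and 94.4 ± 6.70 CPM in Control, Model and HBG (SD, n = 4). Its HBG against Model difference was -0.40 ± 0.13 (SE; edgeR adjusted p = 0.9999). HBG 3 was the lowest library for Dynlrb1 too, at 86.8 CPM. Tppp, the paralogue of Tppp3 known from oligodendrocytes, correlated at -0.333 (0.229 without HBG 3), with its highest level, 46.1 CPM, in HBG 3 and its lowest, 13.1 CPM, in Model 1. HBG 3 was thus at the top for Tppp and at the bottom for Tppp3. The score of the list of these paralogues and 8 cytoplasmic dynein genes correlated with that of the members at 0.946 (0.925 without HBG 3). HBG 3 was lowest and Model 2 second lowest, but the score spanned only -0.32 to 0.20 on the log2 scale. Its genes did not move alike. HBG 3 was lowest for Dync2h1 (28.2 CPM), Dync2i1 (17.0 CPM), Dync2i2 (8.84 CPM), Dynll1 and Dynlt1b. Dync1h1, Dync1i2 and Dync1li1 were higher in HBG 3 than in HBG 1, and Dync1h1 was highest in Model 2 (463 CPM).

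Marker scores of other cell types were set beside the members. None of the airway list scores given here correlated with the member score as closely as that of the cytoplasmic dynein and paralogue list did. That list mixed genes lowest in HBG 3, such as Dync2h1 (28.2 CPM), with genes that were not, such as Dync1h1 (416 CPM in HBG 3). Which of its genes carried the correlation was not tested. All these list scores average genes of unlike pattern, so this ranks the lists and not the cell types. The club and secretory markers correlated with the member score at 0.772 over 12 libraries (0.654 without HBG 3), neuroendocrine markers at 0.875 (0.659 without HBG 3), basal markers at 0.645 (0.585) and goblet markers at 0.596 (0.554). Some markers of the last 3 lists came near the floor of 3 counts. The fewest counts in a library were 0 for Krt5 and Krt17 (basal), 2 for Chga (neuroendocrine) and 3 for Clca1 (goblet). All 10 club and secretory markers were lower in Model than Control, with a median log2 fold change of -0.62, and 0 passed. Their summed level ran from 52863 to 71134 CPM in Control, from 22585 to 37496 CPM in the Model libraries and from 21986 to 59676 CPM in HBG. Most of this sum was Scgb1a1, at a mean of 48217 CPM in Control and 26478 CPM in Model. Of the 10 markers, 1 had an unadjusted p under 0.05 in edgeR, against 11.7% of all genes tested. The list scores of Model and Control overlapped (0.70 in Model 4, -0.58 in Control 1). HBG 3 was lowest for the club score as well (-1.85), and Model 1 and Model 3 were also low (-1.09 and -1.61), where the ciliated score was near -0.09 in both. Model 2, second lowest for ciliated genes at -0.52, was at 0.096 for the club and secretory score and 0.97 for basal markers. The club and secretory genes were split in this library. Scgb1a1 had its lowest level there (16278 CPM), and Scgb3a2, Cyp2f2, Gabrp and Aldh1a7 were second lowest there after HBG 3. For Bpifa1, Bpifb1, Muc5b, Reg3g and Scgb3a1, several libraries lay below Model 2. The part of these cell types in the member values was not tested.

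**Figure D5:**
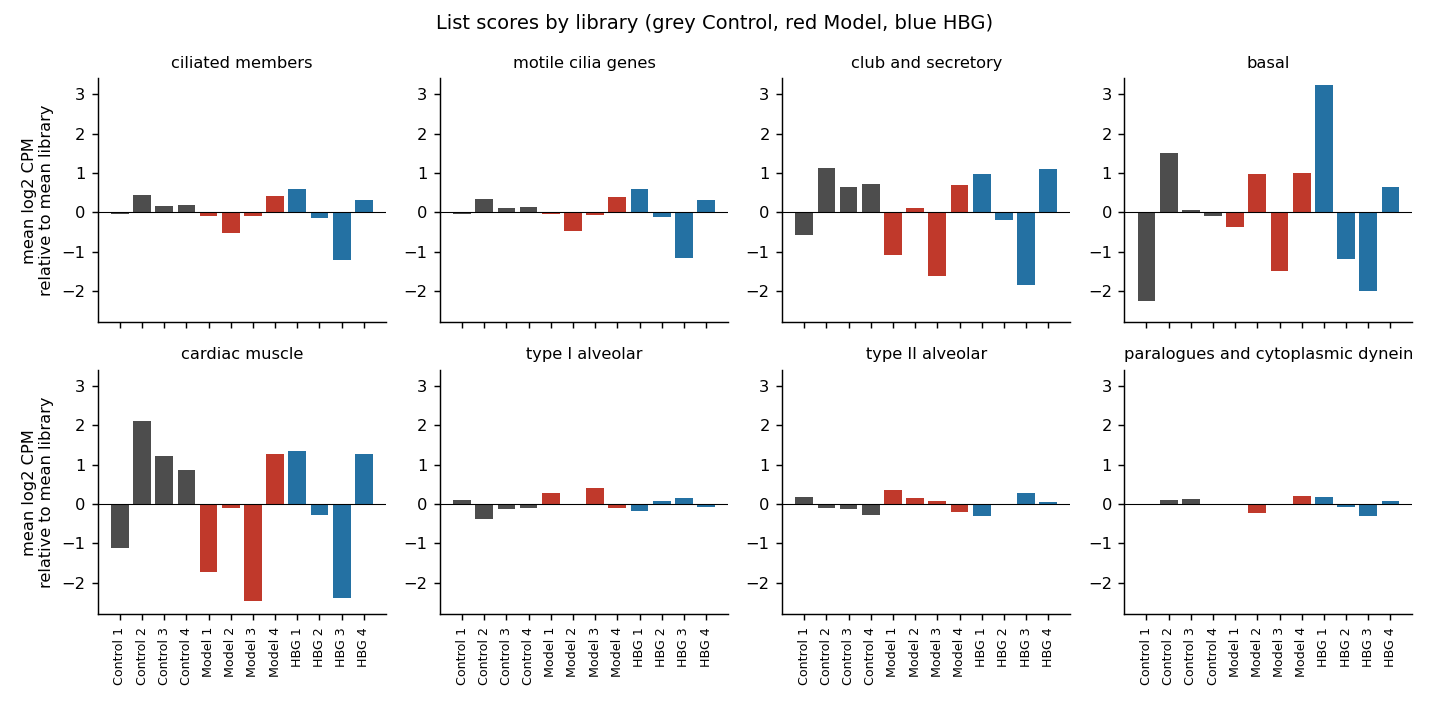
Mean log2 CPM of each marker list in each library relative to the mean library (vertical axis, log2 units), with grey bars for Control, red for Model and blue for HBG. HBG 3 is lowest for the ciliated and club lists, at -1.22 and -1.85. The alveolar lists and the cytoplasmic dynein list span much less.

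Heart muscle markers had a score that correlated with the member score at 0.746 (0.682 without HBG 3). Their summed level ran from 816 to 5414 CPM in Control, from 343 to 3122 CPM in the Model libraries and from 329 to 3264 CPM in HBG. Type I and type II alveolar markers moved the other way, at -0.541 and -0.703 (-0.613 and -0.685 without HBG 3), and mesothelial markers showed 0.029 (0.295 without HBG 3). Their part in the levels of the ciliated genes was not tested.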

How the data were processed

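Lung tissue RNA was profiled in 12 libraries, 4 each from the Control, Model and HBG groups, with groups and replicate numbers taken from the sample titles. Per the labels' protocols, polyadenylated RNA was made into stranded TruSeq libraries and read as pairs of 150 bases. The authors' deposited values are estimated counts per gene, as read from the values: 10% to 15.1% of a library's values were not whole. The submitters' processing notes name aligners (STAR 2.7.9a, HISAT2), counters (HTSeq, featureCounts 2.0.1), read trimmers (fastp, cutadapt, Trimmomatic 0.39), FastQC 0.11.9, DESeq2 1.34.0 and 2 builds, mm10 and GRCm39. The program and annotation behind the counts are not given in the sources used here. Deposited group means were not used.

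Counts were rounded and scaled by TMM in edgeR 4.0.16 (R 4.3.3, limma 3.58.1). filterByExpr kept 17827 genes. The quasi-likelihood F test used all 12 libraries with the group as the term, two-sided, with Benjamini-Hochberg adjustment over all genes tested and a threshold of 0.05. A score is the mean over a list of log2 CPM (prior count 2), after each gene's mean over the 12 libraries was subtracted. Libraries of a group differed by more than sampling noise: over 18 pairs, chi-square per degree of freedom was 17.4 to 153. The members and lists were chosen with earlier results of these data known. The named genes are the members, the 2 smallest p per comparison of the wider list, Dnai2, Ccdc40 and Hydin, the paralogues Dynlrb1 and Tppp, and the 6 genes most alike; Gmnc was named after its values were seen. Self-tests used simulated counts of 17611 genes, with 100 genes changed by each fold. With edgeR they recovered 51 of the 100 2-fold changes and 93 of the 100 4-fold changes, with 4 false calls. DESeq2 recovered 65 and 97 with 29 false calls, and limma-voom 49 and 89 with 2. Smaller changes, such as those of the members, were not simulated. Alternatives were DESeq2 1.42.0, limma-voom with quality weights, RLE and upper-quartile factors, other filters, fits of 2 groups, a replicate block, a GC and length correction with mgcv, and leaving out libraries. Sequences come from RefSeq promoter windows (GRCm38.p6).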

Additional observations from a re-analysis of the deposited data

Results flagged for a closer look

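In 2 results a sample stood far from the others of its group, out of 39 group and item pairs examined; chance alone would flag about 1 in 20. In the Model group, the Dnah5 level of Model 4 (219 CPM) was set off from the other 3 libraries, with a gap of 0.834193 of the group's range, above Dixon's limit for 4 samples. The total count of Model 3 was set off from the other Model totals by 0.847809 of the range.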

How the results depend on the processing

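No member passed the threshold in any of 22 settings; the lowest adjusted p was 0.157 in Model against Control, 0.283 in HBG against Model and 0.613 in HBG against Control. Among the member values under alternatives, 61 changed sign and 599 did not, and no call was among them. The Model against Control median of the members was from -0.387 (without Model 4) to -0.117 (without Control 4, Model 2 and HBG 3 together).

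DESeq2 called 446 genes in Model against Control (202 higher, 244 lower), 4 in HBG against Model and 205 in HBG against Control, against 62, 0 and 27 in edgeR, and 1 motile cilia gene in Model against Control. Limma-voom called 1079, 0 and 101, with 2 motile cilia genes in the first. The replicate block gave 25 and 17 genes in the comparisons with Control. Leaving out 1 library gave 23 to 100 genes in Model against Control (100 without HBG 3) and 16 to 53 in HBG against Control (53 without Model 2). The cause was not tested.

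On the log2 scale, signs turned under limma-voom for Ccdc39 in Model against Control (0.024), Dynlrb2 (0.0068) and Ccdc39 (0.031) in HBG against Model, and Dnah5 (0.0073), Dnah9 (0.0054), Tppp3 (0.035) and Ccdc39 (0.055) in HBG against Control. Upper-quartile factors gave Dynlrb2 0.0054 in HBG against Model. The replicate block gave Dnah11 -0.022 and Tekt1 -0.012 in HBG against Model. The GC and length correction gave Rsph1 0.027 in Model against Control and Tppp3 0.041 in HBG against Control. Without Control 4, Model 2 and HBG 3 together, Rsph1 (0.082) and Ccdc39 (0.16) turned in Model against Control, Dynlrb2 (0.094) and Ccdc39 (0.055) in HBG against Model, and Dnah5 (0.16), Dnah9 (0.17), Dnah11 (0.061), Tppp3 (0.084), Tekt1 (0.13), Rsph1 (0.058) and Ccdc39 (0.21) in HBG against Control.

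With 1 library left out, Model against Control ran from -0.28 to 0.13 for Rsph1 and from -0.26 to 0.11 for Ccdc39. HBG against Model ran from -0.24 to 0.41 for Foxj1, -0.18 to 0.39 for Dnah5, -0.077 to 0.46 for Dnah9, -0.21 to 0.25 for Dnah11, -0.11 to 0.42 for Dnai1, -0.26 to 0.23 for Dynlrb2, -0.22 to 0.34 for Tekt1, -0.41 to 0.15 for Rsph1 and -0.34 to 0.19 for Ccdc39. HBG against Control ran from -0.56 to 0.084 for Foxj1, -0.44 to 0.11 for Dnah5, -0.39 to 0.15 for Dnah9, -0.42 to 0.043 for Dnah11, -0.43 to 0.069 for Dnai1, -0.21 to 0.063 for Tppp3, -0.40 to 0.16 for Tekt1, -0.47 to 0.098 for Rsph1 and -0.38 to 0.16 for Ccdc39. The lowest HBG value came from leaving out HBG 1 for each of these results except Tppp3. Libraries of the same replicate number showed no steady likeness (12 same-number pairs correlated at -0.357 to 0.481, 3 of them over 0.1), and 1 of 12 libraries correlated best with its own number. Whether libraries of the same number were handled together cannot be told from these values. Depth did not limit the members, which had at least 191 counts in every library.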
